A study of Mus musculus with 12 samples.

Results

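Krüppel-like factors (Klf) and the Nr4a nuclear receptors were examined in bulk RNA-seq libraries of mouse subdural CNS-associated macrophages (sdCAMs), which live in the leptomeninges and along brain vessels. The 10 genes, of 56735 gene names in the counts table, were taken by name, by a rule that uses no measured value. They were nevertheless chosen with earlier results of these data known. By their textbook roles 7 were treated as activity-inducible (Klf2, Klf4, Klf6, Klf10, Nr4a1, Nr4a2 and Nr4a3) and 3 as constitutive (Klf3, Klf7 and Klf13).

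The 12 libraries fell into 3 groups of 4. All mice were Mrc1CreERT2/CreERT2:R26tdT/tdT, in which tamoxifen switches on the reporter tdT in cells that use Mrc1, the gene of the mannose receptor CD206. Tamoxifen was given at 5 to 9 weeks of age, and 4 weeks later the mice received vehicle or 200 mg/kg BLZ945, a CSF-1 receptor inhibitor that depletes brain macrophages, for 7 days. Per the study, CD206+ cells of brain without choroid plexuses were sorted 8 weeks after treatment. The groups were tdT+ cells of vehicle mice (labelled CTL), tdT+ cells of BLZ945 mice (pos) and tdT− cells of BLZ945 mice (neg). Mice are labelled F1, F2, M1 and M2, and in the BLZ945 arm both fractions under one label are from one animal. Mrc1 drives the Cre and tdT sits in the Rosa26 locus, so the reporter follows cells that used Mrc1 when tamoxifen was given and their progeny, and the receptor gene carries the Cre insertion on both alleles in every group. Library names mark vehicle and BLZ945 mice differently (pre and Post), what these words stand for is not stated, and whatever differs with them cannot be told apart from treatment in a comparison with vehicle.

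Klf proteins bind GC-rich and CACCC-containing DNA through zinc fingers at their C terminus and either activate or repress. Klf2 and Klf4 are switched on by the MEK5–ERK5–MEF2 route and are known in macrophages and endothelium for holding back inflammatory genes, Klf6 and Klf10 are early response genes, and Klf10 is also known as a TGF-β-inducible early gene. The Nr4a receptors act without a known natural ligand, and they are classical immediate early genes, transcribed within minutes of a stimulus through CREB and MEF2 sites and then degraded quickly as RNA.

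Because the Nr4a genes are known for CREB-driven promoters, the sequence before the transcription start of the members is shown first. Of the 10 members, 9 had an entry in the promoter table of RefSeq (assembly GRCm38.p6, windows of 250 bases before to 50 bases after the start), and Klf10 did not. Both strands were searched for the cAMP response element CRE (TGACGTCA), the CRE core (TGACG, which is contained in a CRE), the TATA box (TATAAA), the GC box (GGGCGG), the CACCC box (CACCC), the Nr4a binding site NBRE (AAAGGTCA), the AP-1 site (TGAGTCA or TGACTCA), and, by name, the CArG box and the MEF2 site. The 3 Nr4a promoters are printed because each held 4 CRE cores, Klf2 because it held a MEF2 site, and Klf3 as a constitutive member. The 250 bases before the start are given 5′ to 3′ on the strand of the gene, and capitals mark CRE cores (TGACG, or CGTCA where the core lies on the other strand) and MEF2 sites.
Nr4a1, chr15:101266596-101266845, plus strand: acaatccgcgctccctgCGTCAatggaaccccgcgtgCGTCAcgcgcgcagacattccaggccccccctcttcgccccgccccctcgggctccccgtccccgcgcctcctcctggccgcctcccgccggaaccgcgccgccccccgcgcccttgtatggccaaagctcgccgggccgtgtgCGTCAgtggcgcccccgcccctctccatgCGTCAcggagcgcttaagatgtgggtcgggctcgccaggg
Nr4a2, chr2:57124004-57124253, minus strand: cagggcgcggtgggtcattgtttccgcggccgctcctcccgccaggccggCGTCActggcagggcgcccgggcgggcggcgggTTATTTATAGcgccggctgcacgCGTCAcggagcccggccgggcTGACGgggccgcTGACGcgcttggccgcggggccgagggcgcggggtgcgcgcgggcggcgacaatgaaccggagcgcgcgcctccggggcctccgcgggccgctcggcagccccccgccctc
Nr4a3, chr4:48045055-48045304, plus strand: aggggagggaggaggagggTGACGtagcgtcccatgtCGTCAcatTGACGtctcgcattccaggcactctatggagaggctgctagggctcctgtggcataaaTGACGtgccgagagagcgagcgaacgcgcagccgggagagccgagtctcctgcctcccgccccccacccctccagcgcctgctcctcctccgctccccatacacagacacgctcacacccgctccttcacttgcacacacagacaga
Klf2, chr8:72318812-72319061, plus strand: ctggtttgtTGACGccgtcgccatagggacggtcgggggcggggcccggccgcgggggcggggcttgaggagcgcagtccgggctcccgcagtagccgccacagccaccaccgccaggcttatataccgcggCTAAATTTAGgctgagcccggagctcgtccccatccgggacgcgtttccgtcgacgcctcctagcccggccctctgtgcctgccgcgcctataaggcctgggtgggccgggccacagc
Klf3, chr5:64803271-64803520, plus strand: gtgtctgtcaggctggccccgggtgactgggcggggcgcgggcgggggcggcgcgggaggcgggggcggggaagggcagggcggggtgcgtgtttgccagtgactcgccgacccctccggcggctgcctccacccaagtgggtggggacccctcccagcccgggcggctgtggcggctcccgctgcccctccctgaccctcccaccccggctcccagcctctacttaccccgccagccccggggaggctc

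The 3 Nr4a promoters carried 4 CRE cores each, and 0.231% of the 32851 promoters in the table carried at least 4. Klf2, Klf4, Klf3 and Klf13 had 1 core each, that of Klf3 lying after the start between positions 19 and 23, while Klf6 and Klf7 had 0. One core or more was thus found in 7 of 9 member promoters and in 20.8% of all promoters. A MEF2 site lay between positions −118 and −109 of Klf2 and between −167 and −158 of Nr4a2, where it shared bases with the single TATA box match among the members. MEF2 sites were present in 3.19% and TATA boxes in 13.6% of all promoters. All 9 member promoters held a GC box (35.7% of all promoters) and 6 held a CACCC box (57.5%). CRE (1.79%), NBRE (1.51%), AP-1 (5.20%) and CArG (1.63%) matches were found in 0 of the 9 windows. The GC content of the member windows ran from 58.3% for Klf7 to 81.7% for Nr4a2, with a median of 52.7% over all promoters. The shares over all promoters were not matched for GC content, and its part in the motif counts was not tested. The map of motif matches shows the CRE cores of the 3 receptors, all before the start.

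**Figure D1:**
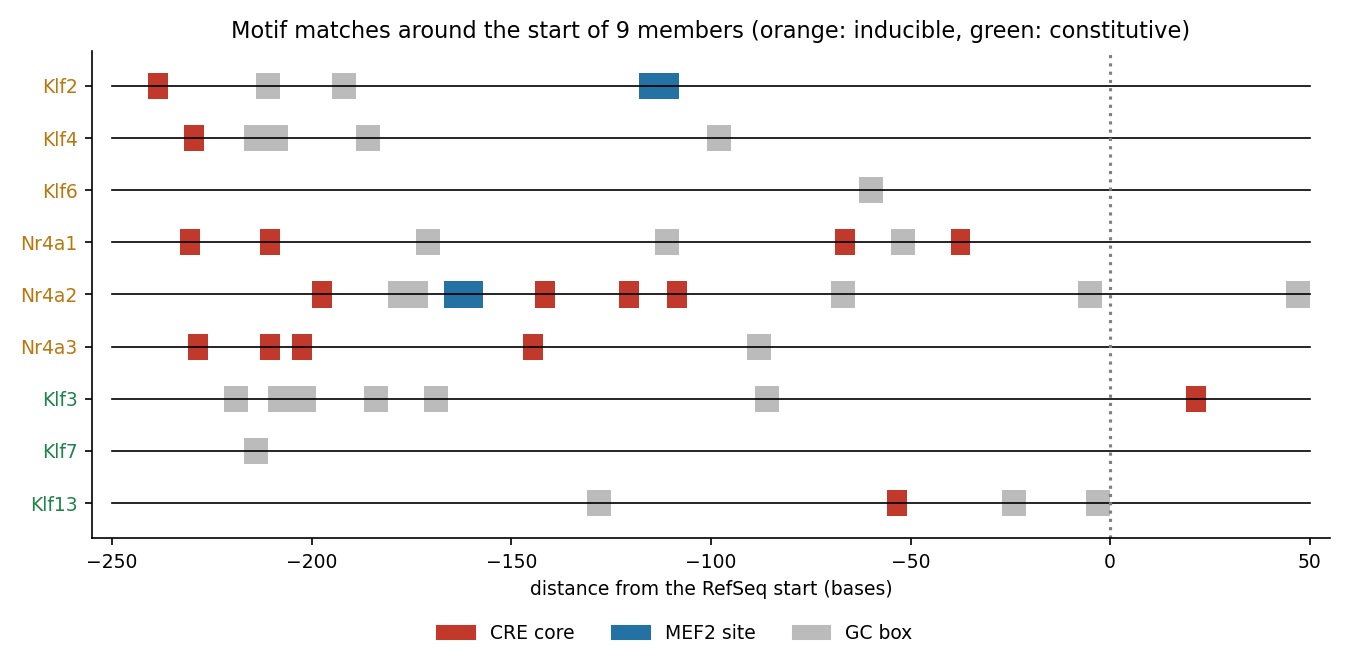
Matches to the CRE core, the MEF2 site and the GC box in 9 member promoters, by distance from the RefSeq start in bases (x axis, 0 at the start; y axis, gene, activity-inducible in orange and constitutive in green). Nr4a1, Nr4a2 and Nr4a3 hold 4 CRE cores each, and no other member holds more than 1.

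Depth was even, with between 19969308 and 23395058 counts per library. Normalized counts are counts divided by the size factor of the library, and a floor of 3 counts corresponded to between 2.60 and 3.16 normalized counts. All 8 border macrophage markers, Mrc1 and Cd163 among them, were counted in all 12 libraries. Their summed level was 16580 to 18470 CPM (counts scaled to a common library total) in vehicle tdT+, 17630 to 20320 in BLZ945 tdT+ and 9592 to 11800 CPM in tdT− libraries. The tdT− library F2 stood apart, with 21630 CPM of neutrophil markers against 76.5 to 274 CPM in the other 11 and 1765 CPM of erythroid markers against 0.385 to 750, and calls that rest on tdT− cells are also given without it. In bulk samples, fewer cells that express a gene and less RNA per cell cannot be told apart.

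The members spanned the whole range of expression. Per kilobase of merged exons, the mean over 12 libraries was 1605 normalized counts for Klf6, 1160 for Klf2, 377 for Klf10, 306 for Klf3, 129 for Klf13, 110 for Klf4, 107 for Klf7, 35.6 for Nr4a1, 7.26 for Nr4a2 and 0 for Nr4a3. Of the 13724 genes that passed the filter on low counts, 95.4% were lower per kilobase than Klf6 and 93.5% lower than Klf2, whereas 34.7% were lower than Nr4a1 and 10.1% lower than Nr4a2. Activity-inducible members therefore took both the highest and the lowest places, with the 3 constitutive members between them. Klf6 exceeded Klf2 in 12 of 12 libraries and Klf3 exceeded Klf13 in 12 of 12. Neighbours whose order was not kept were Klf10 and Klf3 (8 of 12 libraries), Klf13 and Klf4 (7 of 12), Klf4 and Klf7 (6 of 12), Nr4a1 and Nr4a2 (7 of 12), and Nr4a2 and Nr4a3 (8 of 12, both at 0 in the other 4).

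Klf2, a factor that restrains macrophage activation, was expressed at the same order of magnitude in every library. In vehicle tdT+ cells it stood at 2329, 2435, 2028 and 2285 normalized counts in F1, F2, M1 and M2, in BLZ945 tdT+ cells at 2652, 2145, 2325 and 1298, and in tdT− cells at 2619, 2271, 1535 and 1780. The groups overlapped, and the lowest value came from the BLZ945 tdT+ library M2. The log2 fold change of BLZ945 tdT+ over vehicle tdT+ was −0.11 (95% interval −0.57 to 0.35), that of tdT− over BLZ945 tdT+ −0.04 (−0.50 to 0.42) and that of tdT− over vehicle −0.15 (−0.60 to 0.31). All 3 intervals lay within 1 log2 unit of 0. Endothelial cells also express Klf2. The 8 endothelial markers summed to 140 to 153 CPM in vehicle tdT+, 79.3 to 124 in BLZ945 tdT+ and 25.9 to 68.8 CPM in tdT− libraries. Most of this sum was Egfl7, with means of 2914, 2035 and 958 normalized counts in that order. Kdr went the other way, with means of 17.8, 31.4 and 159. The means of Pecam1, Cldn5, Flt1, Cdh5, Tek and Ly6c1 were at most 30.5 in any group. Tek was at 0 in 11 of 12 libraries and Cdh5 at 0 in 10. The part of endothelial cells in the Klf2 level was not tested. The gene lies on chromosome 8 between 73072877 and 73075500 in the coordinates of the counts table (GRCm39), with 2.62 kb the shortest span among the members.

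Klf4, its close relative and a factor of monocyte differentiation, split the libraries inside the groups rather than between them. Vehicle tdT+ cells held 97.2, 359, 149 and 322 normalized counts (F1, F2, M1, M2), BLZ945 tdT+ cells 543, 182, 546 and 534, and tdT− cells 557, 502, 113 and 107. Both tdT− libraries of mice labelled F were over 500 and both of mice labelled M under 120, and in BLZ945 tdT+ cells F2 alone was low. The mean was 232 ± 128 in vehicle tdT+, 451 ± 180 in BLZ945 tdT+ and 320 ± 243 in tdT− cells (SD, n = 4 each). The log2 fold change of BLZ945 tdT+ over vehicle tdT+ was 0.96 (95% interval −0.30 to 2.22, DESeq2 adjusted p = 0.871), so the spread between libraries was too wide to place the difference on either side of 0.

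Klf6, an early response factor of myeloid cells, was the most abundant and the steadiest member. Its normalized counts were 6153, 7126, 5544 and 7321 in vehicle tdT+, 6799, 7114, 8241 and 7460 in BLZ945 tdT+ and 7093, 5586, 7684 and 8472 in tdT− cells (F1, F2, M1, M2). All 12 values lay between 5544 and 8472 and the groups overlapped. The log2 fold changes were 0.18 (95% interval −0.10 to 0.46) for BLZ945 tdT+ over vehicle, −0.04 (−0.32 to 0.24) for tdT− over BLZ945 tdT+ and 0.14 (−0.14 to 0.42) for tdT− over vehicle.

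Klf10, the TGF-β-inducible early gene, was lower in tdT− cells than in both tdT+ groups. It stood at 1419, 2077, 1928 and 1724 normalized counts in vehicle tdT+, at 1655, 3756, 1776 and 1207 in BLZ945 tdT+ and at 515, 1215, 968 and 681 in tdT− cells (F1, F2, M1, M2). All tdT− values were below all vehicle values, and they overlapped BLZ945 tdT+ only in that the highest of them, F2, lay just above the lowest tdT+ library, M2. Within each of the 4 BLZ945 mice the tdT− library was lower, at 0.311, 0.324, 0.545 and 0.564 times the tdT+ level. Against BLZ945 tdT+ the log2 fold change was −1.31 (SE 0.35, −1.12 after shrinkage), with a DESeq2 adjusted p of 0.00490 and an edgeR adjusted p of 0.06. Against vehicle tdT+ it was −1.08 (SE 0.35, −0.85 after shrinkage), with a DESeq2 adjusted p of 0.0335 and an edgeR adjusted p of 0.111. Klf10 was the single member to pass, and the gene is on chromosome 15 between 38291707 and 38300950 (GRCm39). Without the tdT− library F2 the log2 fold change was −1.54 against BLZ945 tdT+ (DESeq2 adjusted p = 0.000691) and −1.31 against vehicle (0.00613). The call against vehicle was lost without vehicle F2, M1 or M2 or without tdT− F1 or M2 (DESeq2 adjusted p = 0.0709 to 0.122, log2 fold change −1.10 to −0.90). Without the BLZ945 tdT+ library F2, which held 3756, the difference from BLZ945 tdT+ was −0.87 and no longer passed (DESeq2 adjusted p = 0.0642).

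Markers of microglia differed in the same comparisons as Klf10, in the opposite direction. All 5 of 5 (P2ry12, Tmem119, Siglech, Sall1 and Gpr34) were higher in tdT− cells than in both tdT+ groups, with none at 0 in any library. Their summed level was 1787 to 2303 CPM in vehicle tdT+, 2373 to 2626 in BLZ945 tdT+ and 4757 to 10180 CPM in tdT− libraries. Monocyte markers summed to 81.3 to 194, 40.9 to 95.6 and 146 to 905 CPM in the same order. Ccr2 was the most abundant of them, with means of 2768, 1214 and 6651 normalized counts. Ly6c2 had means of 18.5, 0 and 920 and was at 0 in 2 of 4 tdT− libraries. Plac8 had means of 12.1, 14.3 and 840, and Vcan was at 0 in all 12 libraries. Without the tdT− library F2, the highest tdT− value of the monocyte sum was 316 CPM. Of 8 border macrophage markers, DESeq2 called 8 lower in tdT− than in BLZ945 tdT+ cells and 7 lower than in vehicle tdT+ cells, and edgeR called 6 and 5. Of all genes, DESeq2 called 6.54% and 6.81% in these comparisons. Without the tdT− library F2, DESeq2 called 7 border macrophage markers lower in each comparison (Csf1r was lost against BLZ945 tdT+ cells). All 5 microglia markers kept their calls in both. The part of these cell types in the Klf10 difference was not tested.

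The Nr4a receptors were the lowest members. Nr4a1 was at or under the floor in 2 of 12 libraries. This receptor, also called Nur77 and required for patrolling monocytes, stood at 23.1, 244, 226 and 0 normalized counts in vehicle tdT+, at 4.60, 69.1, 0 and 8.39 in BLZ945 tdT+ and at 132, 222, 242 and 328 in tdT− cells (F1, F2, M1, M2). Vehicle tdT+ cells were split into 2 libraries above 200 and 2 below 30, BLZ945 tdT+ cells were low throughout, and the tdT− cells were the one group in which all 4 libraries were above 100. The tdT− and BLZ945 tdT+ groups did not overlap, and within each of the 4 mice the tdT− library was higher. The log2 fold change was 3.49 (SE 1.39, 95% interval 0.78 to 6.21), which did not pass over all genes (DESeq2 adjusted p = 0.123, edgeR adjusted p = 0.357), and shrinkage reduced it to 0.12. A fit with the mouse label as a block, as both fractions came from the same mice, also left out the vehicle libraries. There the log2 fold change was 5.07 with a DESeq2 adjusted p of 0.000496. Without the vehicle libraries and without the block, Nr4a1 passed too. With all 3 groups fitted, the log2 fold change was 5.74 without the BLZ945 tdT+ library F2 (DESeq2 adjusted p = 0.00163). It was 3.49 without the vehicle library M2 (0.0296) and 3.51 without the tdT− library F2 (0.186). Against vehicle tdT+ the tdT− cells differed by 0.91 (−1.79 to 3.61) and the BLZ945 tdT+ cells by −2.58 (−5.30 to 0.13), neither of which passed. The gene lies on chromosome 15 between 101152150 and 101172676 (GRCm39).

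Nr4a2 (Nurr1), the receptor best known from dopaminergic neurons, was at 0 in 4 of 12 libraries. It had 45.1, 0, 57.1 and 0 normalized counts in vehicle tdT+, 10.1, 0, 41.0 and 94.4 in BLZ945 tdT+ and 5.22, 99.8, 0 and 0.956 in tdT− cells (F1, F2, M1, M2). Each group held libraries at 0 and libraries above 50, and the intervals of its log2 fold changes were over 8 units wide. Nr4a3 (Nor1) had 0 counts in all 12 libraries, which allows up to 3 counts in each, and was the one member removed by the filter on low counts (under 10 counts in at least 9 of 12 libraries). Its 4 CRE cores printed above thus stand beside no detectable RNA at this depth, while Nr4a1 and Nr4a2 with 4 each were counted in 10 and 8 libraries.

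**Figure D2:**
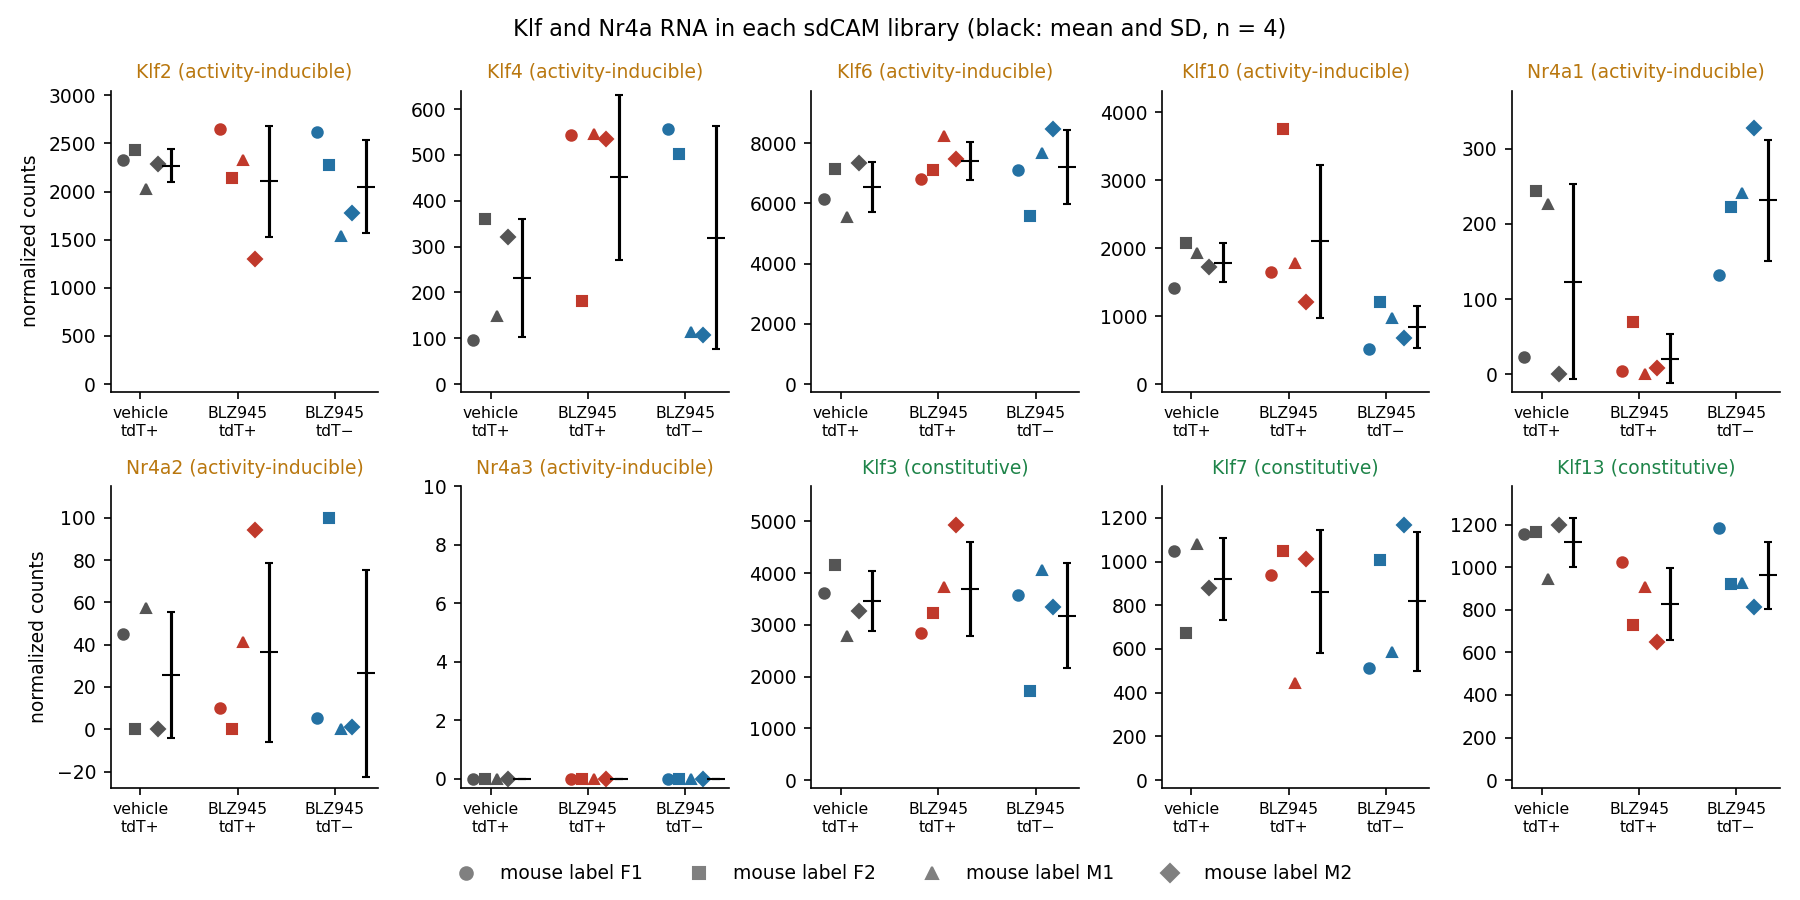
Normalized counts (y axis, linear, own scale per panel) of the 10 members in each library of vehicle tdT+, BLZ945 tdT+ and BLZ945 tdT− sdCAMs (x axis), with the mouse label as symbol and mean ± SD in black (n = 4). Klf10 is lowest in tdT− cells, Nr4a1 reaches 132 to 328 in tdT− cells against 0 to 69.1 in BLZ945 tdT+ cells, and Nr4a3 is at 0 throughout.

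The 3 constitutive members were counted in every library at moderate levels. Klf3, a repressor that recruits CtBP, stood at 3609, 4162, 2780 and 3263 normalized counts in vehicle tdT+, at 2844, 3222, 3736 and 4932 in BLZ945 tdT+ and at 3573, 1726, 4063 and 3335 in tdT− cells (F1, F2, M1, M2). The groups overlapped, and the lowest library was tdT− F2, the one with neutrophil markers. Klf3 shares 404 exon bases with Gm20033 on the other strand, and since reads were counted without strand they could not be separated, although Gm20033 had 296 counts in all against 42165 for Klf3.

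Klf7, a widely expressed factor known from neurons, stood at 1048, 671, 1082 and 879 normalized counts in vehicle tdT+, at 940, 1049, 444 and 1011 in BLZ945 tdT+ and at 514, 1006, 585 and 1168 in tdT− cells (F1, F2, M1, M2). The groups overlapped over most of their range. It has the longest span of the members, 92.8 kb on chromosome 1.

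Klf13, known from T cells as an activator of the chemokine gene Ccl5, was at 1156, 1166, 945 and 1199 normalized counts in vehicle tdT+, at 1022, 728, 906 and 647 in BLZ945 tdT+ and at 1186, 921, 925 and 815 in tdT− cells (F1, F2, M1, M2). BLZ945 tdT+ libraries were below vehicle except that F1 exceeded the vehicle library M1. The log2 fold change was −0.43 (SE 0.21, 95% interval −0.86 to −0.01), with an adjusted p of 0.579 in DESeq2 and 0.697 in edgeR. Within the 4 BLZ945 mice the tdT− library was higher in each, at 1.02 to 1.26 times the tdT+ level, and the fitted log2 difference was 0.22 (−0.20 to 0.64).

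Counted over all contrasts, few members passed the test. A gene was called at an adjusted p of at most 0.05 in the two-sided Wald test of DESeq2, adjusted over all genes. For BLZ945 tdT+ against vehicle tdT+ 0 of 9 tested members passed, with 1 (Klf13) at an unadjusted p under 0.05 in DESeq2 and in edgeR, and edgeR called 0. Of all genes, 0.961% passed in this comparison, 0.484% as higher and 0.477% as lower. For tdT− against BLZ945 tdT+ 1 of 9 passed (Klf10, lower), where 6.54% of all genes passed, 2.94% as higher and 3.61% as lower. For tdT− against vehicle tdT+ 1 of 9 passed (Klf10, lower), where 6.81% of all genes passed, 3.29% as higher and 3.51% as lower. When the study's further threshold was added (a shrunken log2 fold change of 1 or more in absolute value), Klf10 remained against BLZ945 tdT+ (2.31% of all genes) and not against vehicle (2.57%). Groups did not overlap for 0, 1 (Nr4a1) and 1 (Klf10) members, in the order of the comparisons above, and for 6.72%, 9.35% and 9.70% of all genes. The counts of 0 and 1 among 9 members are to be read against these shares, and the comparisons with tdT− cells share their tdT− libraries.

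**Figure D3:**
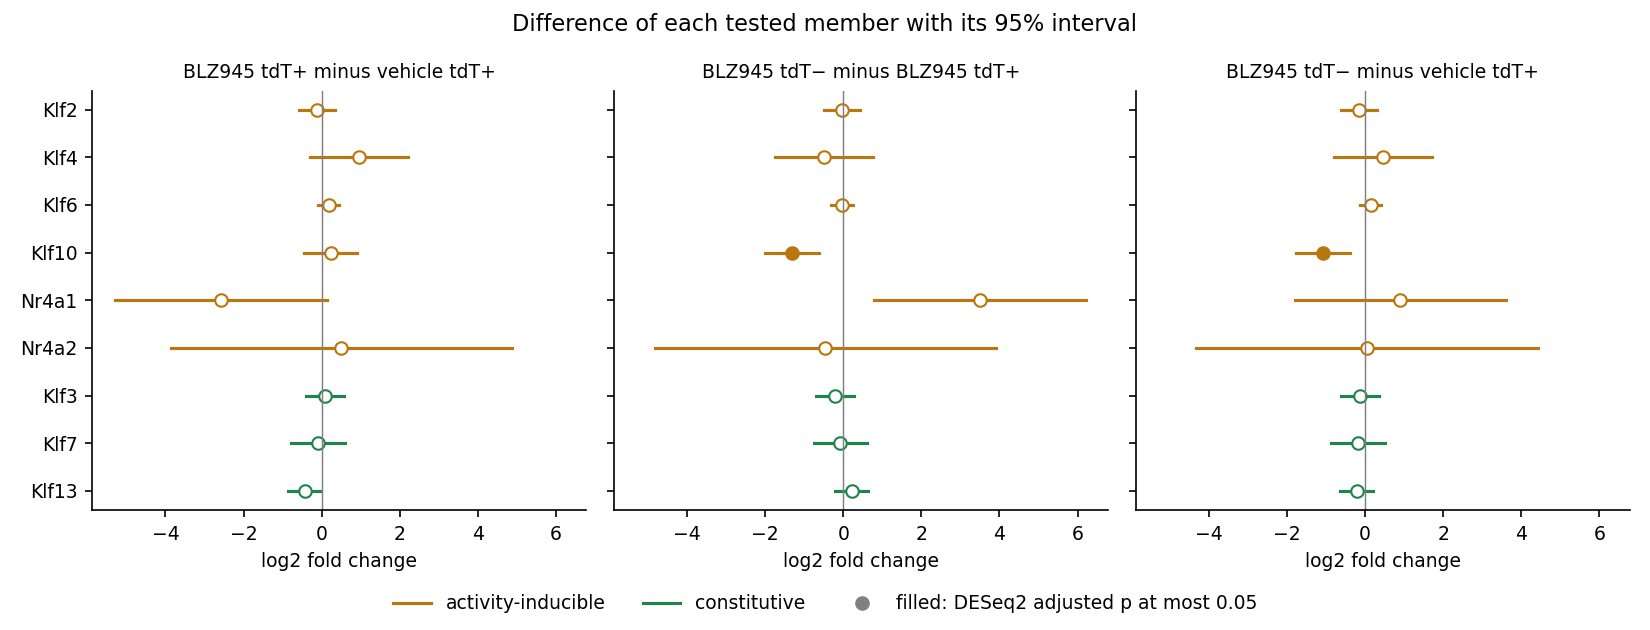
Log2 fold change (x axis) of each tested member (y axis) with its 95% interval in the 3 comparisons, orange for activity-inducible and green for constitutive members, filled where the DESeq2 adjusted p was at most 0.05. Klf10 is filled in both comparisons with tdT− cells, and the intervals of Nr4a1 and Nr4a2 are the widest.

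Set side by side, the activity-inducible members did not move as one. The median log2 fold change over the 6 tested inducible members was 0.21, −0.25 and 0.10 (BLZ945 tdT+ over vehicle, tdT− over BLZ945 tdT+, tdT− over vehicle) and over the 3 constitutive ones −0.10, −0.07 and −0.17. The medians of all genes were 0.03, 0.00 and 0.03. Single values ranged from −2.58 to 3.49 among inducible members and from −0.43 to 0.22 among constitutive ones. Both ends of the inducible range were Nr4a1, with an SE of 1.39 at each end. Neither passed (DESeq2 adjusted p = 0.684 and 0.123), and shrinkage reduced them to −0.02 and 0.12. Klf10 was the only inducible member called in any of the 3 comparisons. Klf2 and Klf6 stayed within 0.18 of 0 in all 3 comparisons, and the width came from Klf10, Klf4, Nr4a1 and Nr4a2.

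Spread between libraries of one group was wide for the members with few counts. The fitted coefficient of variation within groups was 13.9% for Klf6, 22.8% for Klf2, 34.1% for Klf10, 62.6% for Klf4, 135% for Nr4a1 and 218% for Nr4a2, and 20.8% for Klf13, 24.6% for Klf3 and 34.3% for Klf7. Genes with fewer counts vary more in any library, so each gene was also set against the trend of all genes at its level. The gene's own dispersion exceeded the trend in 4 of 6 inducible members (Nr4a1 2.58 times, Klf10 1.74, Nr4a2 1.39 and Klf4 1.22) and in 1 of 3 constitutive members (Klf3, 1.79 times), and in 32.9% of all genes. Klf6 and Klf2 lay under the trend at 0.738 and 0.845 times, and Klf13 lowest at 0.209 times.

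**Figure D4:**
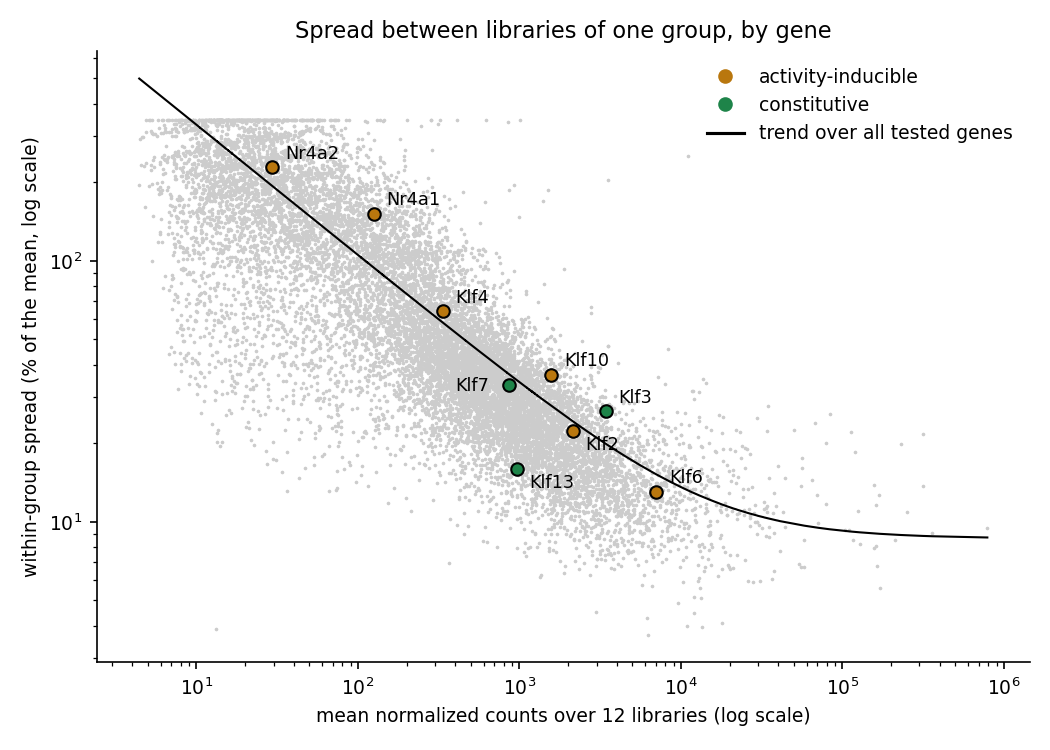
Within-group spread of each gene in percent of its mean (y axis, log scale) against its mean normalized count over 12 libraries (x axis, log scale), grey for all tested genes with a spread above 1%, orange for activity-inducible and green for constitutive members, black line for the trend. Nr4a1 and Klf10 lie above the trend, and Klf13 lies furthest below it.

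Other immediate early genes give the setting for the inducible members. Of 24 tested genes of this kind outside the members, 4 rose in BLZ945 tdT+ over vehicle tdT+ cells and 0 fell, where 0.961% of all genes were called. The AP-1 subunit gene Fos rose from 747 ± 261 to 4014 ± 1420 normalized counts (SD, n = 4), Jun from 2760 ± 453 to 8594 ± 1868, the phosphatase gene Dusp1 from 489 ± 138 to 2550 ± 1007 and Zfp36, whose product destabilises inflammatory mRNA, from 2778 ± 324 to 7886 ± 1287. Their shrunken log2 fold changes were 2.34, 1.61, 2.29 and 1.48, with DESeq2 adjusted p values of 6.74e-12, 1.45e-19, 1.27e-09 and 1.95e-23 and edgeR adjusted p values of 0.0135, 0.00101, 0.0236 and 0.000739. In all 4 the groups did not overlap. Such separation was seen in 9 of the 24 genes and in 6.72% of all genes. The same libraries held the inducible members at the levels given above, where the log2 fold changes were 0.96 for Klf4, 0.51 for Nr4a2, 0.23 for Klf10, 0.18 for Klf6, −0.11 for Klf2 and −2.58 for Nr4a1, beside 2.43 for Fos.

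Against vehicle, tdT− cells had 8 of these 24 genes higher and 0 lower, led by Zfp36 (shrunken log2 fold change 1.48, DESeq2 adjusted p 1.20e-24), Jun (1.29, 1.32e-13), Fos (2.18, 2.92e-11) and Junb (1.37, 8.20e-08). Against BLZ945 tdT+ cells 2 were higher, the antiproliferative gene Btg1 (0.76, 7.32e-09) and Junb (0.78, 0.00450), and 0 lower. Of all genes, 6.81% were called against vehicle and 6.54% against BLZ945 tdT+ cells. edgeR called 4, 1 and 7 of the 24 in the order BLZ945 tdT+ over vehicle, tdT− over BLZ945 tdT+ and tdT− over vehicle. Their median log2 fold change was 0.26, 0.20 and 0.84 in that order. Without the tdT− library F2, DESeq2 called 9 higher against vehicle and 2 against BLZ945 tdT+ cells. Both comparisons with vehicle share the vehicle libraries and the difference in library names described above.

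**Figure D5:**
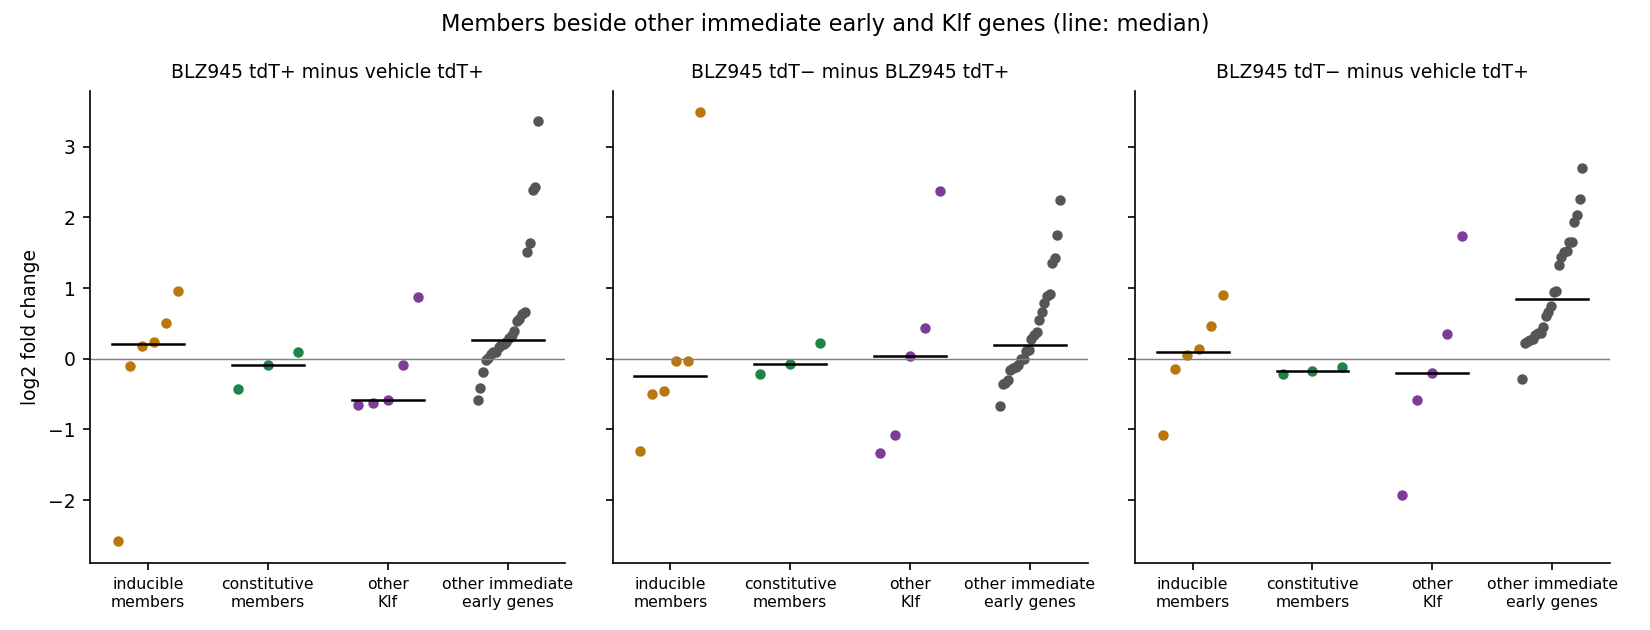
Log2 fold change (y axis) of the inducible members, the constitutive members, other Klf genes and other immediate early genes (x axis) in the 3 comparisons, 1 point per tested gene and a line at the median. The immediate early genes reach a median of 0.84 in tdT− over vehicle cells, whereas the inducible members have a median of 0.10.

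Other Klf genes were mostly low. Of 10 listed, 5 passed the filter and 0 of these were called in any comparison by DESeq2 or by edgeR, with 0, 1 and 0 at an unadjusted p under 0.05 in DESeq2. Klf8, Klf14 and Klf17 had 0 counts in all 12 libraries. Klf9, a glucocorticoid- and thyroid hormone-responsive factor, had 172 ± 60.7 normalized counts in vehicle tdT+, 317 ± 121 in BLZ945 tdT+ and 150 ± 76.4 in tdT− cells (SD, n = 4), which overlapped.

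Genes that act on the members were called at shares to be read against the 0.961%, 6.54% and 6.81% of all genes given above. Of 18 upstream kinases and factors (the ERK5 and ERK1/2 cascades, MEF2, SRF with its ternary complex partners, and CREB with its coactivators), 0 were called in BLZ945 tdT+ over vehicle and in tdT− over BLZ945 tdT+ cells, with 1 at an unadjusted p under 0.05 in each by DESeq2 and 0 called by edgeR. In tdT− over vehicle cells Elk3, a ternary complex factor, was higher (shrunken log2 fold change 0.67, DESeq2 adjusted p = 0.00659, edgeR adjusted p = 0.0554, and 0.0385 in DESeq2 without the tdT− library F2). Among 12 partners and corepressors, such as the CtBP proteins that Klf3 recruits and the RXR receptors that pair with Nr4a1 and Nr4a2, 0 were called in the 3 comparisons by either tool, with 2, 1 and 2 at an unadjusted p under 0.05 in DESeq2.

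Of 5 genes whose products remove Klf proteins, 2 were called in both comparisons with tdT− cells, where 6.54% and 6.81% of all genes were called. The ubiquitin ligase gene Wwp1, whose product targets Klf2, was at 4043 to 6306 normalized counts in vehicle tdT+, 4240 to 5883 in BLZ945 tdT+ and 2095 to 3484 in tdT− libraries, with no overlap. It fell by 0.81 and 0.78 on the shrunken log2 scale against BLZ945 tdT+ and vehicle tdT+ cells (DESeq2 adjusted p = 0.000103 and 0.000225, edgeR 0.0140 and 0.0149). Vhl, the substrate receptor that also acts on Klf4, was higher by 0.82 and 0.99 (DESeq2 adjusted p = 0.0285 and 0.00872), which edgeR did not call (0.118 and 0.0693). With the mouse label as a block Vhl was not called against BLZ945 tdT+ cells (DESeq2 adjusted p = 0.0913) and Wwp1 was (0.00140). Without the tdT− library F2 both kept their calls in both comparisons. RNA levels of Klf2 and Klf4 are given above, and protein was not measured.

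Genes reported as Klf2 or Klf4 targets went in both directions. Of 9, 6 were tested. In BLZ945 tdT+ over vehicle cells 0 were called, with 2 at an unadjusted p under 0.05 in DESeq2 and 0 called by edgeR. In tdT− over BLZ945 tdT+ cells 2 were higher and 2 lower, and in tdT− over vehicle cells 0 were higher and 2 lower. Of all genes, 6.54% and 6.81% were called in these comparisons. With the mouse label as a block, tdT− over BLZ945 tdT+ cells again had 2 higher and 2 lower, but Cdkn1a was not called (DESeq2 adjusted p = 0.0794) and Itgb7, named after its values were seen, was (log2 fold change 6.33, 0.00191). S1pr1, the sphingosine-1-phosphate receptor gene that Klf2 drives in T cells, was lower in tdT− cells at 2256 ± 695 normalized counts against 3924 ± 420 in BLZ945 tdT+ and 4467 ± 611 in vehicle tdT+ cells (SD, n = 4). Its shrunken log2 fold changes were −0.72 and −0.91 (DESeq2 adjusted p = 0.00201 and 4.03e-05, edgeR 0.0324 and 0.00833), beside log2 fold changes of −0.04 and −0.15 for Klf2 itself. Cd36, a scavenger receptor gene listed for both Klf and Nr4a factors, was lower by −0.74 and −1.37 (DESeq2 adjusted p = 0.0119 and 5.13e-07), of which edgeR called the second (0.00830). Higher in tdT− than in BLZ945 tdT+ cells were Retnla (shrunken log2 fold change 3.08, DESeq2 adjusted p = 0.000968) and the cell cycle inhibitor Cdkn1a (0.95, 0.0382), neither called by edgeR (0.0920 and 0.140). Retnla in tdT− cells stood at 195, 2368, 2166 and 104 normalized counts in F1, F2, M1 and M2, so 2 libraries set its mean. Without the tdT− library F2 Retnla was still called (log2 fold change 2.96, DESeq2 adjusted p = 0.0225), Cdkn1a was not (0.0591), and S1pr1 and Cd36 kept their calls.

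Of 9 reported Nr4a targets, 6 passed the filter, and DESeq2 gave no p for Bcl2l11, which left 5 with a test. In BLZ945 tdT+ over vehicle cells 0 were called, with 2 at an unadjusted p under 0.05 in DESeq2 and 0 called by edgeR. The shares of all genes called were 6.54% in tdT− over BLZ945 tdT+ cells and 6.81% in tdT− over vehicle cells. Cd36 was the one target called in tdT− over BLZ945 tdT+ cells. In tdT− over vehicle cells Cd36 was lower and the muscle-type enolase gene Eno3 was higher (shrunken log2 fold change 1.46, DESeq2 adjusted p = 0.0223, edgeR 0.139). Eno3 ran from 231 to 561 normalized counts in tdT− against 66.4 to 162 in vehicle tdT+ libraries. Without the tdT− library F2, DESeq2 called 1 target higher (Eno3) and 2 lower (Cd36 and Bcl2l11) in both comparisons with tdT− cells. Bcl2l11 was named after its values were seen.

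For Klf2, Klf4 and Nr4a1 the genes with the most similar pattern were taken across 9606 other genes with a mean of at least 100 normalized counts, by Pearson's r of log2(normalized count + 1) over 12 libraries after the group means were subtracted. These r values describe a ranking over few libraries that share depth and preparation, and they carry no test. For Klf2 they were Stx6 (0.934), Agk (0.921), Sh2b1 (0.918), Cert1 (0.911) and Psen2 (0.910). For Klf4 they were Thrap3 (0.945), Dip2a (0.941), Ubxn2a (0.928), Ofd1 (0.925) and Prkci (0.889), and for Nr4a1 Sh2b2 (0.967), Cyp4f18 (0.940), Psmd11 (0.937), Pfkfb3 (0.936) and Galnt12 (0.923). No other member and no gene of the immediate early list was among these 15 genes.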

How the data were processed

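Bulk RNA-seq counts of sorted sdCAMs were analysed in 12 libraries. The authors deposited raw read counts for each gene, made per the labels with STAR 2.7.11a and featureCounts 2.0.6 from exon reads, without strand and without multi-mapping reads. The annotation was GENCODE M33 (GRCm39), and exon lengths were taken from the deposited table. Libraries were amplified by PCR without molecular identifiers, so floors cover counting error only. The intervals of log2 fold changes also include the spread between libraries of a group, through the fitted dispersion. All 12 columns were matched to a library by library name. The name of 1 vehicle column joins the number of library M2 with the label M1, and the number was followed.

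In R 4.3.3, genes with under 10 counts in at least 9 of 12 libraries were removed, leaving 13724. DESeq2 1.42.0 was fitted with group as the single term on all 12 libraries (median-of-ratios size factors, two-sided Wald test, Benjamini-Hochberg adjustment over all genes). Unless called shrunken, log2 fold changes are unshrunken, with 95% intervals of 1.96 SE. Shrinkage used apeglm 1.24.0. The scripts were tested on simulated data. Alternatives were edgeR 4.0.16 (quasi-likelihood, TMM), TMM factors in DESeq2, other filters, 2 groups only, the letter (F or M) as covariate, the mouse label as a block, each library left out (for the lists, leaving out tdT− F2 and the block were added after seeing the data), and the fold change rule of the study. The fit with the block held only the 2 groups compared. Same-labelled tdT+ and tdT− libraries of BLZ945 mice are paired by mouse per the labels. Across genes their deviations from the group means correlated at 0.0115 to 0.0375.

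The members, the split into inducible and constitutive genes, and all other lists were chosen with earlier results of these data known. A gene each of the microglia markers and the Klf target list is not reported here. Genes outside the members were named by rule, at most 4 per list and comparison with the smallest adjusted p at or under 0.05, and Klf8, Klf9, Klf14 and Klf17 were named after their values were seen. Nothing in the labels says whether replicates are separate litters, and p-values measure the spread between these libraries.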

Additional observations from a re-analysis of the deposited data

Results flagged for a closer look

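In 27 groups of 4 libraries with any counts of a member, 4 held a library outlying by Dixon's criterion (the gap to the nearest other library, as a share of the range of the group, above the 95% critical value). For normally distributed values chance alone flags about 1 in 20 groups. Whether that rate holds for these counts, some of them at or near 0, was not tested. BLZ945 tdT+ F2 was outlying for Klf4, at 182 normalized counts against 534 to 546 in the other 3, and for Nr4a1, at 69.1 against 0 to 8.39. Vehicle tdT+ M1 was outlying for Klf13, at 945 against 1160 to 1200. The tdT− library F2, which carries neutrophil marker RNA, was outlying for Nr4a2, at 99.8 against 0 to 5.22.

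In 2 members, tdT− cells differed from tdT+ cells of the same mice in one direction in both mice labelled F and in the other direction in both labelled M. For Klf4 the mean difference was 167 normalized counts in F and −430 in M mice, and for Klf7 it was −234 in F and 149 in M mice. Some differences were small: the tdT− library held 1.03 times the tdT+ level of Klf4 in F1 and 0.96 times that of Klf7 in F2. With 2 mice per letter these differences were not tested.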

How the results depend on the processing

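Of 510 single log2 fold changes recomputed under 19 alternatives, 498 kept their side of the threshold, and the other 12 all belong to Klf10 and Nr4a1 in comparisons with tdT− cells, none with a called value that changed sign. edgeR called 0 members in both comparisons with tdT− cells. In tdT− over BLZ945 tdT+ cells, 2 members (Klf10 and Nr4a1) passed when 2 groups only were fitted and 2 (the same genes) in the fit with the replicate block, the mouse label that pairs fractions of one mouse, and the block changed no other member's call. In tdT− over vehicle cells, 0 passed the fold change rule of the study. Leaving out 1 library gave 1 to 2 members in tdT− over BLZ945 tdT+ cells (2 without vehicle M2, and without BLZ945 tdT+ F2 Nr4a1 in place of Klf10) and 0 to 1 in tdT− over vehicle cells (0 without vehicle F2, M1 or M2, or tdT− F1 or M2). The edgeR adjusted p of Klf10 was 0.06 and 0.111 where its log2 fold change was −1.33 and −1.11. Over all alternatives Klf10 stayed between −1.54 and −0.87 against BLZ945 tdT+ and between −1.31 and −0.90 against vehicle. The cause of lost calls was not tested. Nr4a2 had 0 counts in 4 of 12 libraries and 10 or more in 6, and Nr4a3 had 0 in all 12. The part of depth in these zeros was not tested.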
